A study of Mus musculus with 6 samples.

Results

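The genes described here handle zinc: the metallothioneins Mt1 and Mt2, the metal-responsive transcription factor Mtf1, the exporters Slc30a1 and Slc30a4, and the importers Slc39a1, Slc39a6, Slc39a8, Slc39a10 and Slc39a14. They were taken by symbol, all 10 of 10 listed, from the 54532 genes of the deposited count table. N9 is an immortalized line of mouse microglia. RNA was sequenced from 3 libraries of LPS-stimulated N9 microglia, kept with lipopolysaccharide (LPS, an endotoxin from the wall of gram-negative bacteria) at 1 µg/ml for 6 h, and from 3 libraries of untreated control N9 microglia. All 6 libraries come from this one line, cultured in the same medium with fetal bovine serum. The labels do not say whether the replicates were separate cultures, so the p-values measure only the spread between these libraries.

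Zinc is a cofactor of very many enzymes and transcription factors, and cells hold its free concentration very low. Metallothioneins are small cysteine-rich proteins that bind zinc and copper in the cytosol. Slc30 proteins (ZnT) carry zinc out of the cytosol, to the outside or into organelles, and Slc39 proteins (ZIP) carry it into the cytosol. MTF-1, the product of Mtf1, binds metal response elements when cellular zinc rises and drives metallothionein genes and Slc30a1. In macrophages and microglia, bacterial stimuli are known to shift zinc between compartments.

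The total count per library lay between 16363767 and 17956772, and 3 counts corresponded to 0.161 to 0.19 CPM (counts per 1000000 of the TMM-scaled library). Of 14 microglia and macrophage markers, 10 passed the filter on low counts. Csf1r had 7140 to 8027 counts over the 6 libraries, Cd68 10267 to 11691 and Spi1 4804 to 7114. P2ry12 (3 to 6 counts), Aif1 (4 to 9), Fcrls (2 to 12) and Sall1 (0 or 1), which mark microglia in brain, did not pass. Of the markers of other brain cells, 3 of 6 passed for astrocytes, with a summed level of 95.9 to 105 CPM, 2 of 6 for neurons, with 26.3 to 32.3 CPM, and 1 of 6 for oligodendrocytes, with 27.9 to 39.8 CPM. Gfap, Rbfox3, Mog and Sox10 had at most 10 counts in any library, whereas Gja1 had 1151 to 1279, Aldh1l1 350 to 534, Map2 252 to 432 and Mbp 457 to 672. Tubb3 had 58 to 81 counts in control and 179 to 231 with LPS. Of 22 hepatocyte markers, 20 and 18 were above 3 counts in control replicates 2 and 3, against 1 in control replicate 1 and 1 or 2 in the LPS libraries. Their summed level was 26.2 and 34.9 CPM in control replicates 2 and 3 and 5.26 to 6.81 CPM in the other 4 libraries, where Ambp made up most of it. Alb was counted 2, 155 and 292 times in control replicates 1, 2 and 3, and 2, 0 and 0 times after LPS.

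The promoters of Mt1, Mt2 and Slc30a1 are shown because these are the textbook genes under MTF-1 and their levels differed widely here. Each runs from 250 bases before to 50 after a RefSeq start site on GRCm38.p6, on the plus strand: chr8:94178839-94179138 for Mt1, chr8:94172368-94172667 for Mt2 and chr1:191906531-191906830 for Slc30a1. Capitals mark matches to the metal response element, searched as TGCACNC or TGCGCNC on both strands.
Mt1: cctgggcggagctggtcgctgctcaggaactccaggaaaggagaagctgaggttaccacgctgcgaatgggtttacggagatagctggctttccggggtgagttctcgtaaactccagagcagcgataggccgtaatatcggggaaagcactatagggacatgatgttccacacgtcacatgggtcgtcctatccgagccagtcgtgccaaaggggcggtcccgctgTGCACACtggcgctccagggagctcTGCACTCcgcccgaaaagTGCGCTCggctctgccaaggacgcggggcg
Mt2: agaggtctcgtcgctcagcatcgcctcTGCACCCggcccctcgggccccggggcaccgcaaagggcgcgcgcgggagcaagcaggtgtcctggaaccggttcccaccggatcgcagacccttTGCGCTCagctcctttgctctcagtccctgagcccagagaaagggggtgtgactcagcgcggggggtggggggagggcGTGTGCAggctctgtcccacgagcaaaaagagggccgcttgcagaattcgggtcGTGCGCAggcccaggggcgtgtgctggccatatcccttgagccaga
Slc30a1: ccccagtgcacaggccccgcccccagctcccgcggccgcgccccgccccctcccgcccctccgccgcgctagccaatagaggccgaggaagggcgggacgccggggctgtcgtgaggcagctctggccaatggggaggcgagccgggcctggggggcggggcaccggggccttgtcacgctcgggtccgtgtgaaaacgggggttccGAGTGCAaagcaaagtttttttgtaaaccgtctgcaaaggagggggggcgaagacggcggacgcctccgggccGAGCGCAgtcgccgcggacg

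The RefSeq table held promoters for 8 of the 10 genes. By the same search, the Mt2 promoter had 4 matches, those of Mt1 and Slc30a4 had 3 each, that of Slc30a1 had 2, and 1 of the promoters of Slc39a8 had 1. The promoters of Mtf1, Slc39a1 and Slc39a10 had no such letters in these windows. The windows of Slc39a10 lie at chr1:46925727-46926026 and chr1:46853569-46853868. Neither covers the start of the deposited gene, at 46892852 on the minus strand, so that start was not searched. Of all 32851 promoters in the table, 25.7% had at least 1 match, 7.11% at least 2, 1.97% at least 3 and 0.517% at least 4. The letters TGACNNNGC of the antioxidant response element, held by 12.4% of all promoters, were found in Mt2, Slc30a1, Slc39a1 and 1 promoter of Slc39a8, without overlap with the metal response elements. The letters TTCNNNGAA of the STAT element (8.3% of promoters) were found in 1 promoter of Slc39a10, and a kappa B element (8.46%) in that of Slc39a1. These matches are a description of sequence and not of binding.

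In LPS-stimulated versus control N9 microglia, 7 of the 10 genes were higher, 1 was lower and 2 were not called by edgeR's quasi-likelihood test with Benjamini-Hochberg adjustment at 0.05. Among all 12296 genes tested, 34.3% were called, 18.7% higher and 15.7% lower with LPS. All 10 passed the filter on low counts, and their median log2 fold change was 0.34, beside 0.00 over all tested genes. These genes were chosen with earlier results of the data known, so their share is a description only. The changes were small. The log2 fold changes ran from -0.19 to 0.79, and none of the 10 reached the threshold of 1.5 that defines a DEG in the study, which 2.65% of tested genes did (2.4% higher and 0.252% lower with LPS). For 8 genes the LPS and control libraries did not overlap, as for 45.3% of tested genes. In RNA from bulk cultures, a change in the share of cells with a transcript and a change in transcript per cell cannot be told apart. With the libraries scaled by their total counts in place of TMM, the same numbers of the 10 genes were called, 7 higher and 1 lower, but the split over all genes moved from 2294 higher and 1927 lower to 1520 higher and 3342 lower.

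**Figure D1:**
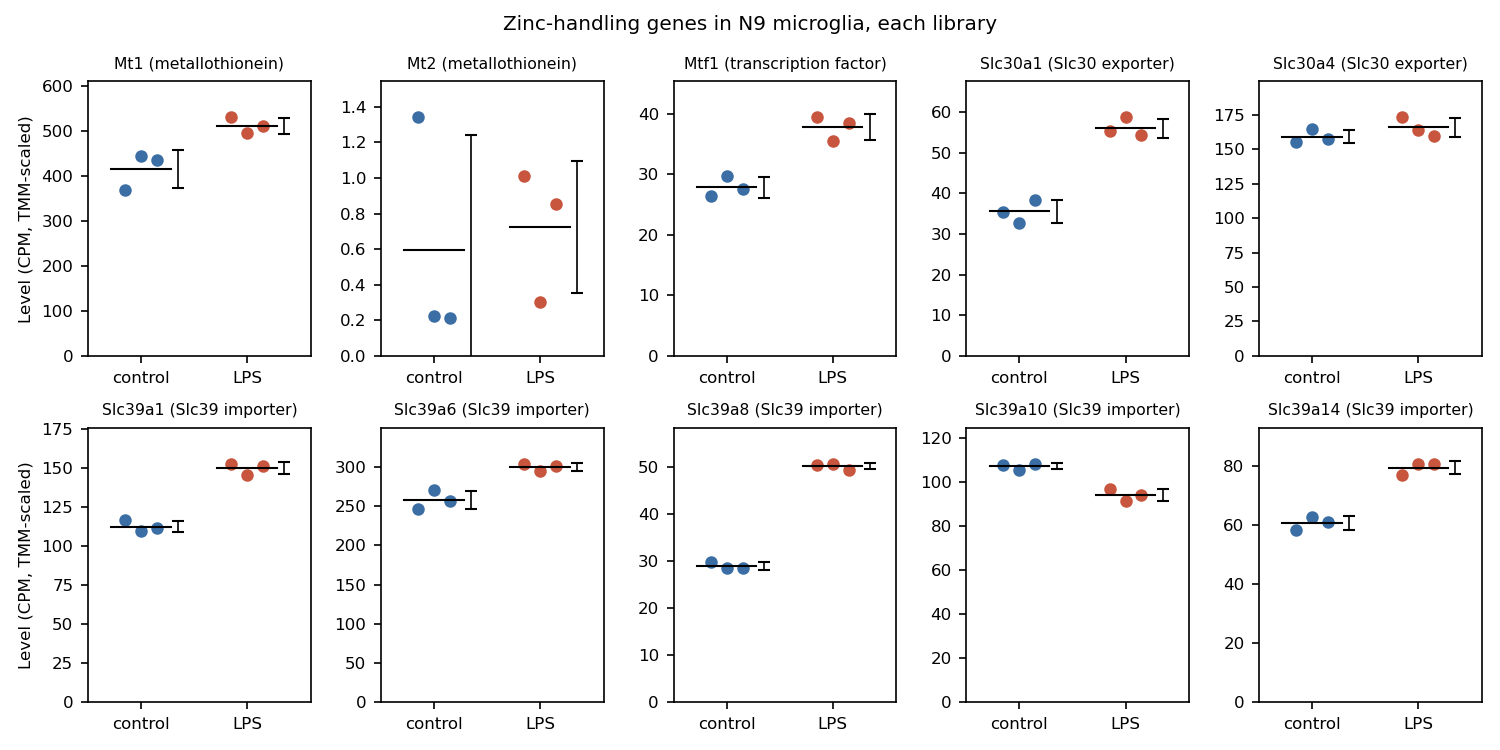
Level of each of the 10 genes in CPM (TMM-scaled, axes from 0) in the 3 control and 3 LPS libraries, with the mean (line) and the SD (bar, which for Mt2 in control runs below 0 and is cropped). The groups overlap only for Mt2 and Slc30a4, and the LPS libraries are below the control libraries only for Slc39a10.

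Mt1 (ENSMUSG00000031765), on the plus strand of chromosome 8 of GRCm38 from 94179082 to 94180327, was the most abundant of the 10 genes. Its level in control replicates 1, 2 and 3 was 369, 445 and 436 CPM, against 531, 496 and 512 CPM in LPS replicates 1, 2 and 3. Every LPS library lay above every control library, and control replicate 1 was the lowest. The mean rose from 416 ± 41.7 to 513 ± 17.9 CPM (SD, n = 3), 1.23-fold, with a log2 fold change of 0.30 (SE, the standard error, 0.06, adjusted p = 0.00113 by edgeR). By mean CPM, Mt1 ranked 323 of 12296 tested genes in control and 280 with LPS. Control replicates 2 and 3, which held more hepatocyte transcripts, also had more Mt1 than control replicate 1. The hepatocyte markers without Ambp summed to 0.29, 19.2 and 28.9 CPM in control replicates 1, 2 and 3. Without control replicate 1 the log2 fold change was 0.21, and without control replicates 2 or 3 it was 0.34 and 0.33, called in each case. The part of hepatocyte RNA in the Mt1 values was not tested.

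Mt2 (ENSMUSG00000031762), on the same strand of chromosome 8 from 94172664 to 94173568, was counted 23, 4 and 4 times in control replicates 1, 2 and 3, and 16, 5 and 14 times after LPS. The groups overlapped, and control replicate 1 held the most. Its log2 fold change was 0.30 (SE 0.65, adjusted p = 0.764 by edgeR), with a 95% interval from -1.09 to 1.68. This value depended on which library was left out. Without control replicate 1 the log2 fold change was 1.66 (adjusted p = 0.0742 by edgeR). Without control replicate 2, control replicate 3 or LPS replicate 1 it was between -0.12 and -0.02. Without LPS replicate 2 or 3 it was 0.66 or 0.16. No change of Mt2 passed the test in any of these fits.

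The neighbouring genes Mt1 and Mt2, which usually respond to metals together, were counted at very different levels. In control replicates 1, 2 and 3 the Mt2 count was 0.364%, 0.0509% and 0.0493% of the Mt1 count, and after LPS it was 0.191%, 0.0615% and 0.166%. The log2 ratio of Mt2 to Mt1 was -10.01 ± 1.65 in control and -9.64 ± 0.89 with LPS (SD, n = 3), a difference of 0.36 with p = 0.8 (exact permutation test, two-sided, smallest possible p = 0.1). Without control replicate 1 the difference was 1.32, and without control replicate 2 or 3 it reversed to -0.10 or -0.12. Without LPS replicate 1, 2 or 3 it was 0.060, 0.88 or 0.16. In GENCODE M21 on GRCm38, 432 of the 588 exonic bases of Mt2 (73.5%) also lie in an exon of Gm45774, an antisense gene on the opposite strand. A counter that ignores strand leaves reads over 2 genes unassigned by default, and the strand setting is not given in the sources used here. Gm45774 itself had 13 counts over the 6 libraries, Mt2 had 66 and Mt1 had 47224. No exonic base of Mt1 is shared with another gene, and none of the 500 windows of 50 bases in the transcript Mt1-201 occurs in a transcript of another gene. The part of this overlap in the low count of Mt2 was not tested.

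The other metallothioneins of the cluster lie upstream of Mt2 on the same strand. Mt3, the brain metallothionein, had 2 counts over the 6 libraries, and Mt4, known from squamous epithelium, had 3. Neither shares an exonic base with another annotated gene.

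**Figure D2:**
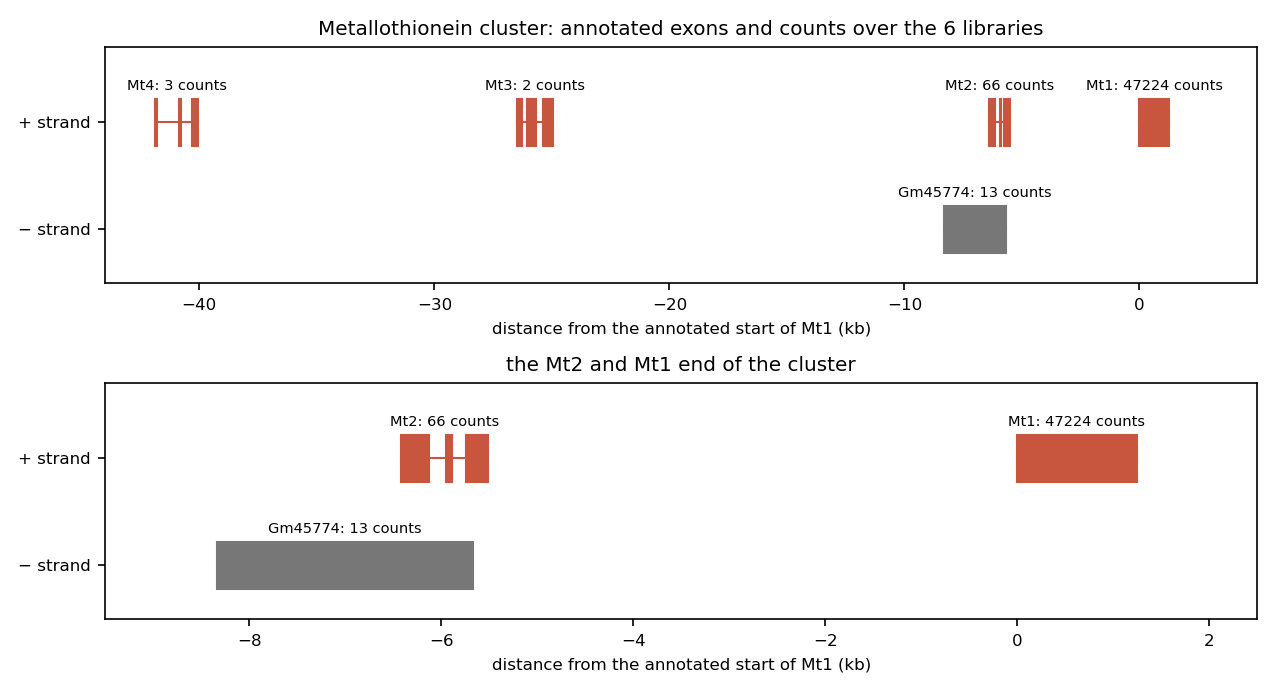
Annotated exons (boxes) of the metallothionein genes (red) and of the antisense gene Gm45774 (grey) by distance in kb from the annotated start of Mt1, with the strand on the vertical axis and the counts summed over the 6 libraries. Mt1, with 47224 counts, is free of overlap, whereas 73.5% of the exonic bases of Mt2, with 66 counts, lie under Gm45774.

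Mtf1 (ENSMUSG00000028890), on chromosome 4 from 124802104 to 124849800, had 26.4, 29.8 and 27.6 CPM in control and 39.5, 35.5 and 38.6 CPM with LPS. All LPS libraries were above all control libraries. The transcription factor's transcript rose by 0.44 on the log2 scale (SE 0.08, adjusted p = 3.4e-04 by edgeR), or 1.35-fold. The gene 1110065P20Rik on the opposite strand covers 8.09% of the exonic bases of Mtf1 and its log2 fold change was 0.02 (SE 0.15, adjusted p = 0.937 by edgeR).

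Slc30a1 (ENSMUSG00000037434), on chromosome 1 from 191906767 to 191913247, encodes ZnT1, the exporter at the plasma membrane. It had 35.5, 32.7 and 38.4 CPM in control and 55.2, 58.7 and 54.2 CPM with LPS, well apart. It rose by 0.66 (SE 0.07, adjusted p = 2.7e-06 by edgeR), or 1.58-fold. Only 7.01% of tested genes had a larger log2 fold change. Slc30a4 (ENSMUSG00000005802), on chromosome 2 from 122681233 to 122702663, encodes ZnT4, an exporter of intracellular vesicles. It had 155, 165 and 158 CPM in control and 173, 164 and 160.0 CPM with LPS, and the groups overlapped. Its log2 fold change was 0.06 (SE 0.05, adjusted p = 0.376 by edgeR), with a 95% interval from -0.04 to 0.16, and -0.04 when the libraries were scaled by total counts.

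Among the importers, Slc39a8 changed most of the 10 genes. Slc39a8 (ENSMUSG00000053897), on chromosome 3 from 135825279 to 135888572, encodes ZIP8, which also carries manganese and cadmium. It had 29.8, 28.6 and 28.4 CPM in control and 50.5, 50.6 and 49.4 CPM with LPS. The libraries of each group lay within about 1 CPM of their mean. Slc39a8 rose by 0.79 on the log2 scale (SE 0.06, adjusted p = 1.0e-07 by edgeR), or 1.73-fold, and 5.64% of tested genes had a larger log2 fold change.

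Slc39a14 (ENSMUSG00000022094), on chromosome 14 from 70303469 to 70351425, encodes ZIP14, a carrier of zinc, manganese and iron not bound to transferrin. It had 58.2, 62.9 and 60.9 CPM in control and 77.1, 80.7 and 80.6 CPM with LPS, without overlap, and rose by 0.39 (SE 0.05, adjusted p = 2.8e-05 by edgeR). Slc39a1 (ENSMUSG00000052310), on chromosome 3 from 90248172 to 90253612, encodes ZIP1, a widely expressed importer. It had 117, 110 and 112 CPM in control and 153, 146 and 152 CPM with LPS, and rose by 0.42 (SE 0.05, adjusted p = 4.3e-06 by edgeR). Of its windows of 50 bases, 21.8% also occur in the pseudogene Slc39a1-ps, which had 17 counts over the 6 libraries.

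Slc39a6 (ENSMUSG00000024270, chromosome 18) and Slc39a10 encode ZIP6 and ZIP10, close relatives that can form a joint importer, and they moved in opposite directions. Slc39a6 had 247, 270.1 and 257 CPM in control and 304, 295 and 301 CPM with LPS, and rose by 0.22 (SE 0.04, adjusted p = 0.00135 by edgeR), or by 0.12 with total counts in place of TMM. Slc39a10 (ENSMUSG00000025986), on chromosome 1 from 46807544 to 46892852, had 108, 106 and 108 CPM in control and 97.0, 91.3 and 94.1 CPM with LPS. All its LPS libraries were below all control libraries, and it fell by 0.19 on the log2 scale (SE 0.04, adjusted p = 0.00465 by edgeR), or to 0.879 of its control level, and by 0.28 with total counts. Slc39a10 was the only gene of the 10 called lower. Both changes were close to the usual size here. The median absolute log2 fold change over all tested genes was 0.17. A larger absolute change than that of Slc39a6 was seen in 41.7% of tested genes, and than that of Slc39a10 in 46.9%.

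Summed by role in RPKM (the CPM divided by the gene length in kb), the 5 importers amounted to 137, 140 and 137 in control and to 169, 163 and 168 with LPS. The 2 exporters amounted to 35.1, 36.3 and 36.1 in control and 42.1, 41.1 and 39.5 with LPS. On average Slc30a1 went from 6.78 to 10.7 RPKM and Slc30a4, which was not called, from 29.0 to 30.2. This sum leaves out the Slc30 genes outside the 10. Of the 4 of those that passed the filter, Slc30a5 fell from 17.9 to 13.9 RPKM and 3 were not called. The metallothioneins, nearly all Mt1, amounted to 298, 357 and 350.2 in control and 428, 398 and 412 with LPS. In log2 of the group means the sums differed by 0.27, 0.19 and 0.30, and for all of them the LPS libraries lay above the control libraries.

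Per kilobase of the deposited gene length, the order of levels was the same in both groups: Mt1, Slc39a6, Slc39a1, Slc30a4, Slc39a10, Slc30a1, Slc39a14, Slc39a8, Mtf1 and Mt2. In control, Mt1 had 334 ± 33.4 RPKM and the next gene, Slc39a6, 63.3 ± 2.83, whereas Mtf1 had 3.13 ± 0.195 and Mt2 had 1.01 ± 1.10 (SD, n = 3). No neighbours in this order overlapped between their libraries within a group. The order depends on the length used. The deposited length of Mt1, 1246 bases, is that of the whole gene, since other annotated transcripts fill its introns, and its principal transcript Mt1-201 has 549 bases. With lengths of principal transcripts, Mt1 had 759 ± 75.9 in control, and Slc39a14 (12.3 ± 0.475) and Slc39a8 (8.19 ± 0.212) came above Slc30a1 (6.78 ± 0.543).

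**Figure D3:**
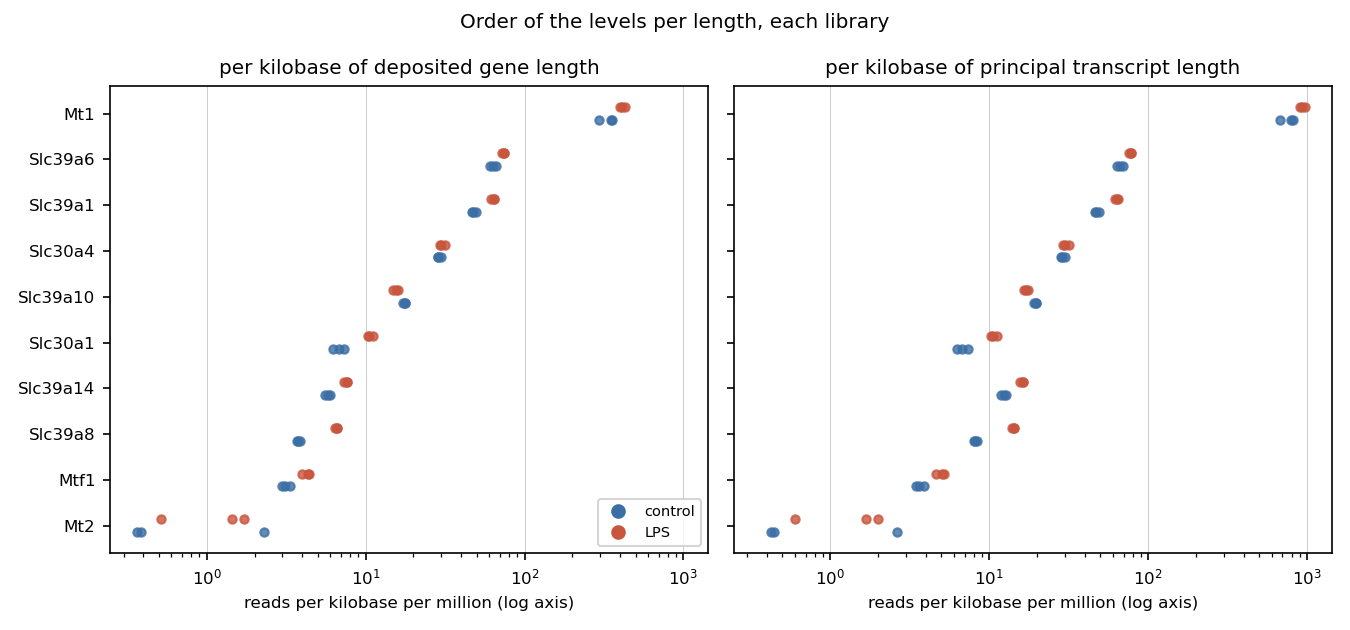
Level of the 10 genes in each library in RPKM on a log axis, per kilobase of the deposited gene length (left) and of the principal transcript (right), control in blue and LPS in red. Mt1 is highest and Mt2 lowest on either scale, and Slc30a1 drops below Slc39a14 and Slc39a8 on the right.

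Of 20 further metallothionein and zinc transporter genes, 13 passed the filter on low counts, of which 3 were higher, 1 was lower and 9 were not called, beside 18.7% higher and 15.7% lower of all tested genes. Their median log2 fold change was 0.12. The genes that rose were all Slc39 importers. Slc39a4, the importer for dietary zinc in intestine, rose from 1.33 ± 0.192 to 2.99 ± 0.387 CPM (SD, n = 3), by 1.16 (SE 0.25, adjusted p = 0.0024 by edgeR). Slc39a2 had 5.13, 5.61 and 6.93 CPM in control and 13.5, 13.0 and 12.5 CPM with LPS, and rose by 1.14 (SE 0.13, adjusted p = 8.5e-06 by edgeR), or 2.20-fold. Slc39a13, a Golgi importer, rose by 0.33 (SE 0.08, adjusted p = 0.00418 by edgeR). Slc30a5, which forms a Golgi exporter with Slc30a6, fell by 0.37 on the log2 scale (SE 0.05, adjusted p = 1.6e-05 by edgeR), from 131 ± 3.96 to 101 ± 2.87 CPM. Slc30a6 had a log2 fold change of 0.19 (adjusted p = 0.176 by edgeR), which ran from 0.076 without LPS replicate 1 to 0.26 without LPS replicate 3. Slc39a7 also was not called, at a log2 fold change of 0.27 (SE 0.15, adjusted p = 0.174 by edgeR), but was called without control replicate 1, at 0.45 (adjusted p = 0.0183 by edgeR). Without control replicate 2 or 3 it was at 0.17 (adjusted p = 0.465 by edgeR) or 0.19 (adjusted p = 0.433 by edgeR), and 80.7% of its exonic bases are shared with Gm20427 on the same strand. Slc39a5, at 0.76 (SE 0.37, adjusted p = 0.133 by edgeR), was likewise called only without LPS replicate 1, at 1.07 (adjusted p = 0.0323 by edgeR), and was at 0.30 without LPS replicate 3 (adjusted p = 0.614 by edgeR). The 7 genes that did not pass, Mt3, Mt4, Slc30a2, Slc30a3, Slc30a8, Slc30a10 and Slc39a12, had at most 2 counts in any library. Of these, Slc30a2, Slc30a8 and Slc39a12 had 0 counts in all 6 libraries, which allows up to 3 counts, or 0.161 to 0.19 CPM, in each.

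**Figure D4:**
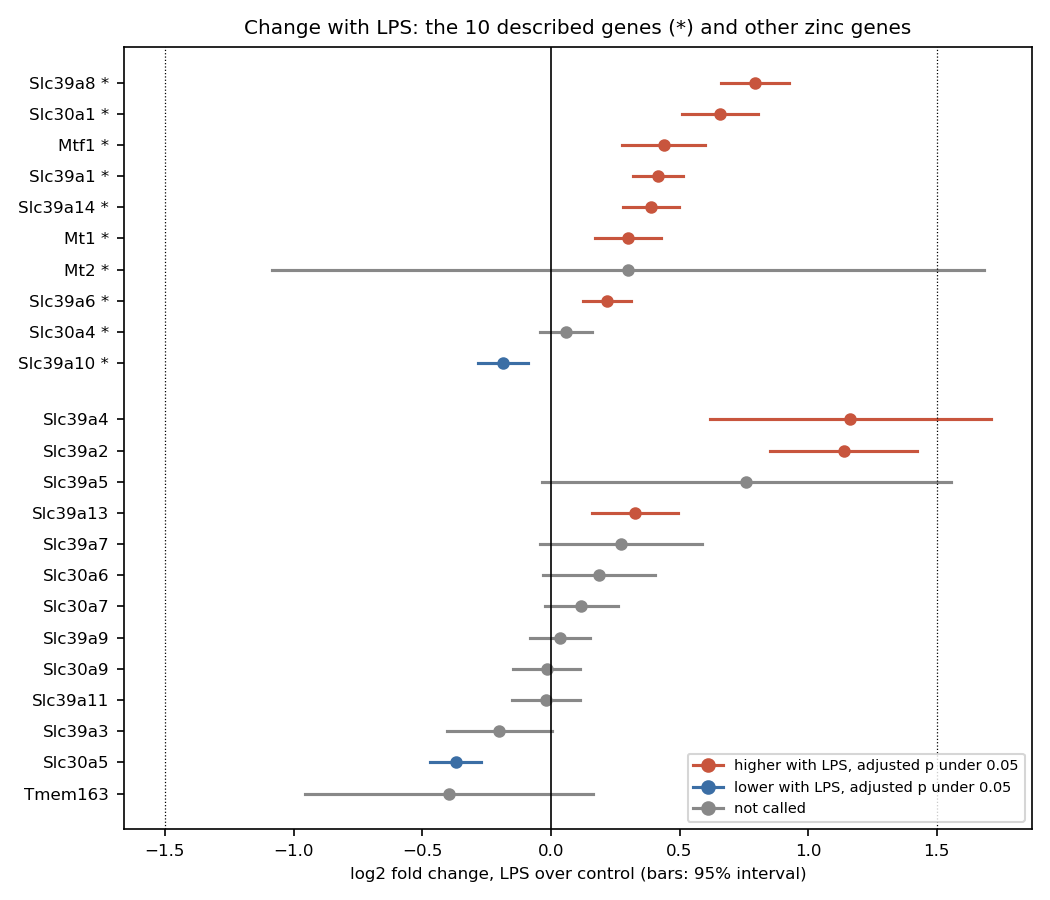
Log2 fold change of LPS over control with its 95% interval from edgeR for the 10 genes (asterisk) and the 13 other zinc genes that passed the filter, with dotted lines at 1.5 in either direction. Slc39a8 and Slc30a1 lead the 10 genes at 0.79 and 0.66, Slc39a4 and Slc39a2 lead the others at 1.16 and 1.14, and the interval of Mt2 runs from -1.09 to 1.68.

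By family, 7 of the 13 Slc39 genes that passed the filter were higher with LPS and 1 was lower, with a median log2 fold change of 0.33, against 1 higher and 1 lower of 6 Slc30 genes, with a median of 0.09. Of all tested genes 18.7% were higher and 15.7% lower. The difference between the families was not tested.

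Of 7 genes described as targets of MTF-1 other than Mt1, Mt2 and Slc30a1 or linked to it, 6 passed the filter, of which 1 rose, 2 fell and 3 (Csrp1, Selenoh and Slc40a1) were not called, beside 34.3% called of all tested genes. The gene that did not pass, Pgf, was counted 4, 6 and 1 times in control and 9, 15 and 10 times with LPS. Ndrg1, a stress-responsive gene, rose from 23.8 ± 1.68 to 39.6 ± 1.08 CPM, by 0.74 (SE 0.07, adjusted p = 1.9e-06 by edgeR). Gclc, the catalytic subunit of the enzyme that starts glutathione synthesis, fell by 0.43 on the log2 scale (SE 0.05, adjusted p = 1.1e-05 by edgeR), and the myeloid transcription factor Cebpa by 0.39 (SE 0.07, adjusted p = 8.3e-04 by edgeR). Of 8 S100 proteins and zinc-permeable channels, 7 passed, 2 rose, 1 fell and 4 (S100a1, S100a4, Mcoln1 and Trpm2) were not called, against the same 34.3%. S100a8, a subunit of the zinc-binding protein calprotectin, was counted 59, 77 and 78 times in control and 178, 170 and 170 times with LPS, and rose by 1.41 (SE 0.14, adjusted p = 1.9e-06 by edgeR). Its partner S100a9 had at most 4 counts in any library. S100a6 rose by 0.27 (SE 0.05, adjusted p = 3.8e-04 by edgeR), or by 0.17 with total counts. Trpm7, a channel for zinc and magnesium, fell by 0.18 on the log2 scale (SE 0.06, adjusted p = 0.0209 by edgeR), and this call was lost without control replicate 2, control replicate 3, LPS replicate 2 or LPS replicate 3, at log2 fold changes of -0.14, -0.18, -0.18 and -0.19. With total counts Trpm7 fell by 0.28.

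Among 9872 other protein-coding genes averaging 50 counts or more, those whose levels over the 6 libraries most resembled Mt1 were Pot1b, Mak16 and Esf1. Their root mean square differences from Mt1, in log2 CPM centred on each gene's mean, were 0.02, 0.03 and 0.04, beside a median of 0.21 over these genes. For Mt2 the nearest, Insl6, Bcl2a1b and Zfp383, were at 0.74, 0.75 and 0.75, beside a median of 1.03. Pot1b had only 78 to 101 counts per library, so its closeness to Mt1 is not resolved beyond counting error. The likeness describes these 6 libraries and shares their depth and treatment.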

How the data were processed

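RNA-seq of N9 microglia was made in 6 libraries, 3 control and 3 LPS, grouped by the sample titles. The authors deposited whole-number read counts per gene without normalization, and the submitters' processing notes name featureCounts 1.5.0-p3 and the build mm10 (GRCm38). The aligner and strand setting are not given in the sources used here. The deposited table of the authors' own comparison, with fold changes and p-values, was not used. The deposited gene length, a property of the gene model, was used for levels per kilobase.

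Counts were tested with edgeR 4.0.16 under R 4.3.3 (quasi-likelihood, TMM, filterByExpr by group, prior count 0.125), with Benjamini-Hochberg adjustment over 12296 tested genes. The standard error is the log2 fold change divided by the square root of F. Permutation tests used scipy 1.17.1. In simulated counts for this comparison with 12303 genes tested, 68 of 68 genes changed by a log2 of 2, 63 of 64 changed by 1 and 43 of 68 changed by 0.5 were recovered, with 4 false calls in all. The simulation gave every gene the same fixed dispersion, not one estimated from these libraries, and changed only well-counted protein-coding genes. Exon overlap, transcript lengths and windows came from GENCODE M21, and promoters from RefSeq on GRCm38.p6. Replicates of a group were compared pairwise and were apart beyond sampling noise (chi-square per gene 3.61 to 7.82). Counting limits cover counting error only.

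The genes and lists were chosen with earlier results of these data known. All 10 genes are named, each further list is given by its counts with examples from the genes that passed the filter, and for Mt1 and Mt2 the 3 genes most like each by the stated measure. Alternatives were DESeq2 1.42.0, RLE size factors, no filter, a filter at a mean of 10 counts, a prior count of 2, a replicate block and each library left out in turn. No filter with robust dispersion, total counts without TMM and principal transcript lengths were added after seeing the data.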

Additional observations from a re-analysis of the deposited data

How the results depend on the processing

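Over 14 alternatives each, 8 of the 10 genes kept their direction and call in every one, and no call changed for any of the 10. Of 140 values, 4 reversed, all of genes not called. When single libraries were left out Mt2 ran from -0.12 to 1.66, and Slc30a4 was at -0.040 with total counts in place of TMM. With total counts the log2 fold change of Mt1 was 0.20 (adjusted p = 0.0153 by edgeR), that of Slc39a6 0.12 (adjusted p = 0.0441 by edgeR) and that of Slc39a10 -0.28. The ratio of Mt2 to Mt1 differed by -0.12 to 1.32 on the log2 scale with each library left out.

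With total counts, 1520 of all genes were higher and 3342 lower, 2 of the other zinc genes, 4 of the genes linked to MTF-1 and 2 of the S100 proteins and channels were lower, and the median log2 fold change of all tested genes was -0.09. Under that setting Slc39a9 and S100a1 reversed to -0.064 and -0.070. With a library left out, S100a1 lay between -0.033 and 0.060, Slc39a9 between -0.0078 and 0.044, Slc30a9 between -0.060 and 0.035 and Slc39a11 between -0.050 and 0.013. None of these 4 genes was called in the fit reported. Leaving out a library gave 0 or 1 lower genes among the S100 proteins and channels and 1 or 2 higher among the genes linked to MTF-1. The importer sum differed by 0.25 in CPM, against 0.27 per kilobase. The cause was not tested.

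No clear pairing by replicate number was seen. The deviations of same-numbered libraries correlated at 0.15, 0.07 and -0.01, and those of differently numbered libraries at -0.17 to 0.10. With a replicate block, the 10 genes had 7 higher and 1 lower, 2454 of all genes were higher and 2020 lower, and Csrp1 (-0.17) and S100a4 (0.74) were also called. Csrp1 was called in 7 of 14 alternatives and S100a4 in 3, the others being both fits without a filter. Total counts also called Slc39a3 (-0.30), Selenoh (-0.23) and Mcoln1 (-0.16), and Selenoh was called without LPS replicate 1 (-0.16). The simulation recovered fewer changes of 0.5 than of 1. It used the same fixed dispersion for every gene, so its recovered shares do not give the sensitivity for the genes of these libraries. Small changes of genes not called here may still be missed.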
